A study of Mus musculus with 16 samples.

Results

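The genes described here are 10 markers of spermatogonial stem and progenitor cells, the undifferentiated germ cells at the base of the seminiferous tubule. They were chosen by name, and all 10 were found among the 55414 gene identifiers of each deposited table: Gfra1 (ENSMUSG00000025089), Ret (ENSMUSG00000030110), Etv5 (ENSMUSG00000013089), Id4 (ENSMUSG00000021379), Nanos2 (ENSMUSG00000051965), Nanos3 (ENSMUSG00000056155), Zbtb16 (ENSMUSG00000066687), Sall4 (ENSMUSG00000027547), Lin28a (ENSMUSG00000050966) and Uchl1 (ENSMUSG00000029223). Their levels were measured by RNA sequencing of whole mouse testes, taken at postnatal day 14 (P14) or 16 (P16), ages at which the first wave of germ cells is in meiotic prophase. The study deleted Ythdc2, which encodes an RNA helicase needed by germ cells entering meiosis, and asked for its role in spermatocytes.

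The 16 libraries fell into 6 groups. The controls gave 2 libraries at either stage, the Cre controls 2 at P14 and 4 at P16, and there were 3 libraries of Ythdc2 conditional knockout (cKO) mice at each stage. The protocol attached to every library gives tamoxifen at 10 mg/ml on the days P12 and P13, so the controls had received the drug too. The labels name neither the promoter that drives Cre nor the alleles carried by either control type, and they do not say that replicate libraries came from separate animals. The p-values below therefore measure the spread between these samples. The controls and cKO libraries 1 and 2 of each stage were depleted of ribosomal RNA with one kit (Ribo-Zero, the first kit) and sequenced in 1 run. The Cre controls and cKO library 3 were depleted with another (NEBNext, the second kit), with Cre control P16 libraries 2 to 4 in a run of their own. Between 14494867 and 27531529 reads per library fell on genes. Ythdc2 itself was lower in each cKO library than in every control library of its table, at 226.3 to 753.2 against 1352 to 2666 normalized counts.

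Stem and progenitor spermatogonia either renew themselves or pass on to differentiation, and the choice is steered by the somatic niche around them. Sertoli cells secrete the growth factor GDNF, which binds the receptor GFRA1 and its signalling partner RET on the stem cells, and the transcription factors ETV5 and ID4 act downstream of or alongside that signal. The RNA-binding proteins NANOS2, NANOS3 and LIN28A, the zinc-finger factors ZBTB16 (PLZF) and SALL4, and the deubiquitinase UCHL1 (PGP9.5) mark overlapping sets of undifferentiated cells. Etv5 is also made by Sertoli cells.

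Promoter sequences are shown for the 5 members with a RefSeq start that were called in the cKO testes at P16 (values below): Id4 and Etv5, which rose, and Lin28a, Nanos3 and Uchl1, which fell. RefSeq gave 8 transcription starts for 7 of the 10 members, on build GRCm38.p6; Ret, Zbtb16 and Sall4 are named only. The 250 bases before the start were searched on both strands for the GC box (GGGCGG, or CCGCCC on the other strand) and the CCAAT box (CCAAT, or ATTGG on the other strand), a pair of common promoter elements whose letters do not overlap here, and matches are in capitals.
Id4 (chr13:48260866-48261115, plus strand): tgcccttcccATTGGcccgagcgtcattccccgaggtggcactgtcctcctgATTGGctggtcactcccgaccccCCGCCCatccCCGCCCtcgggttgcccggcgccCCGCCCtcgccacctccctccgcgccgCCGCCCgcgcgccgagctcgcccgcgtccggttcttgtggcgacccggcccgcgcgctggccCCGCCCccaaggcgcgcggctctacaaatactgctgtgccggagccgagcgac
Etv5, first start (chr16:22439571-22439820, minus strand): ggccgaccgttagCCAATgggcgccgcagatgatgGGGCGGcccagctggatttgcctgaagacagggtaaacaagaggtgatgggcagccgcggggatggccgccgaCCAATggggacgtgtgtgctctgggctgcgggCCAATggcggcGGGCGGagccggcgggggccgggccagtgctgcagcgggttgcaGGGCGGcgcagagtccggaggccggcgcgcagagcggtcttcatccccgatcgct
Etv5, second start (chr16:22438369-22438618, minus strand): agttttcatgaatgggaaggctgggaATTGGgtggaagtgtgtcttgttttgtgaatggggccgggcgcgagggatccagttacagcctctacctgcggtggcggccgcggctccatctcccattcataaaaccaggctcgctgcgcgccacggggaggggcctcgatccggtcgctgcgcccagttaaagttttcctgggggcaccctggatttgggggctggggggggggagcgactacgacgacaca
Lin28a (chr4:134018817-134019066, minus strand): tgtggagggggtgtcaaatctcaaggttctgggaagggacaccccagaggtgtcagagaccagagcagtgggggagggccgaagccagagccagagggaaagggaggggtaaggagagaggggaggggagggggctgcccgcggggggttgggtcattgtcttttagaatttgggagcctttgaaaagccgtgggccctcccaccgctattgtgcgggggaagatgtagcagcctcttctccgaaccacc
Nanos3 (chr8:84176553-84176802, minus strand): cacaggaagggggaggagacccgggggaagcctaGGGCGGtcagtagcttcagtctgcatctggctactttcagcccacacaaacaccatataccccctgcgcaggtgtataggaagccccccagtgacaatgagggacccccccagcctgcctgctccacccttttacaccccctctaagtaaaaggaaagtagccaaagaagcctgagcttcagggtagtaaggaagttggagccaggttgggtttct
Uchl1 (chr5:66675871-66676120, plus strand): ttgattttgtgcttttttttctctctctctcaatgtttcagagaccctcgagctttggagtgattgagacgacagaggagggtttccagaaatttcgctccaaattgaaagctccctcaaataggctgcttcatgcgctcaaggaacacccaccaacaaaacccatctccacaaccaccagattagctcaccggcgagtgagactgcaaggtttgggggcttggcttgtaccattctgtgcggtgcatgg
The Id4 window held 5 GC boxes and 2 CCAAT boxes at 75.6% GC, and the first Etv5 start had 3 of each at 71.2% GC. The second Etv5 start had 0 GC boxes and 1 CCAAT box. Of the members that fell, Nanos3 had 1 GC box, and the windows of Lin28a (61.2% GC) and Uchl1 (48.8% GC) held 0 matches to either motif. Of the members not shown, Gfra1 had 1 CCAAT box and Nanos2 had 2. Among the same windows of 32851 RefSeq starts, 32.7% held a GC box and 33.8% a CCAAT box, and the median GC content was 52.4%. A match here is a description of letters and not of factor binding.

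Levels were first set against each other within the controls, as reads per kilobase of exon per 1000000 gene reads, since only a value per length can be compared between genes. In the P14 controls Uchl1 stood far above the rest at 143.4 ± 9.94 (SD, n = 2). Lin28a followed at 11.8 ± 0.285 and Zbtb16 at 11.5 ± 0.490, and the ranges of that pair overlapped. Sall4 came next at 9.54 ± 0.299, then Id4 at 7.94 ± 0.641 and Etv5 at 6.94 ± 0.830, which overlapped each other. The receptor genes were lower, with Ret at 3.58 ± 0.514 and Gfra1 at 2.76 ± 0.324, and Nanos3 lay within the range of Gfra1 at 2.74 ± 0.051. Nanos2 was the lowest at 0.258 ± 0.083 and rested on 7 and 11 reads. The order was not the same in the P14 Cre controls of the second kit (n = 2). There Uchl1 was again highest and Nanos2 lowest, but Zbtb16 was at 18.8 ± 2.97, Etv5 at 14.2 ± 7.01, Lin28a at 12.9 ± 0.384 and Id4 at 4.63 ± 0.078. Exon lengths came from another annotation release than the deposited counts, so these per-length levels are approximate. Annotated antisense genes overlap 6 of the members (Gfra1, Id4, Nanos2, Lin28a, Sall4 and Uchl1), but no such partner had more than 11 reads in any library.

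**Figure D1:**
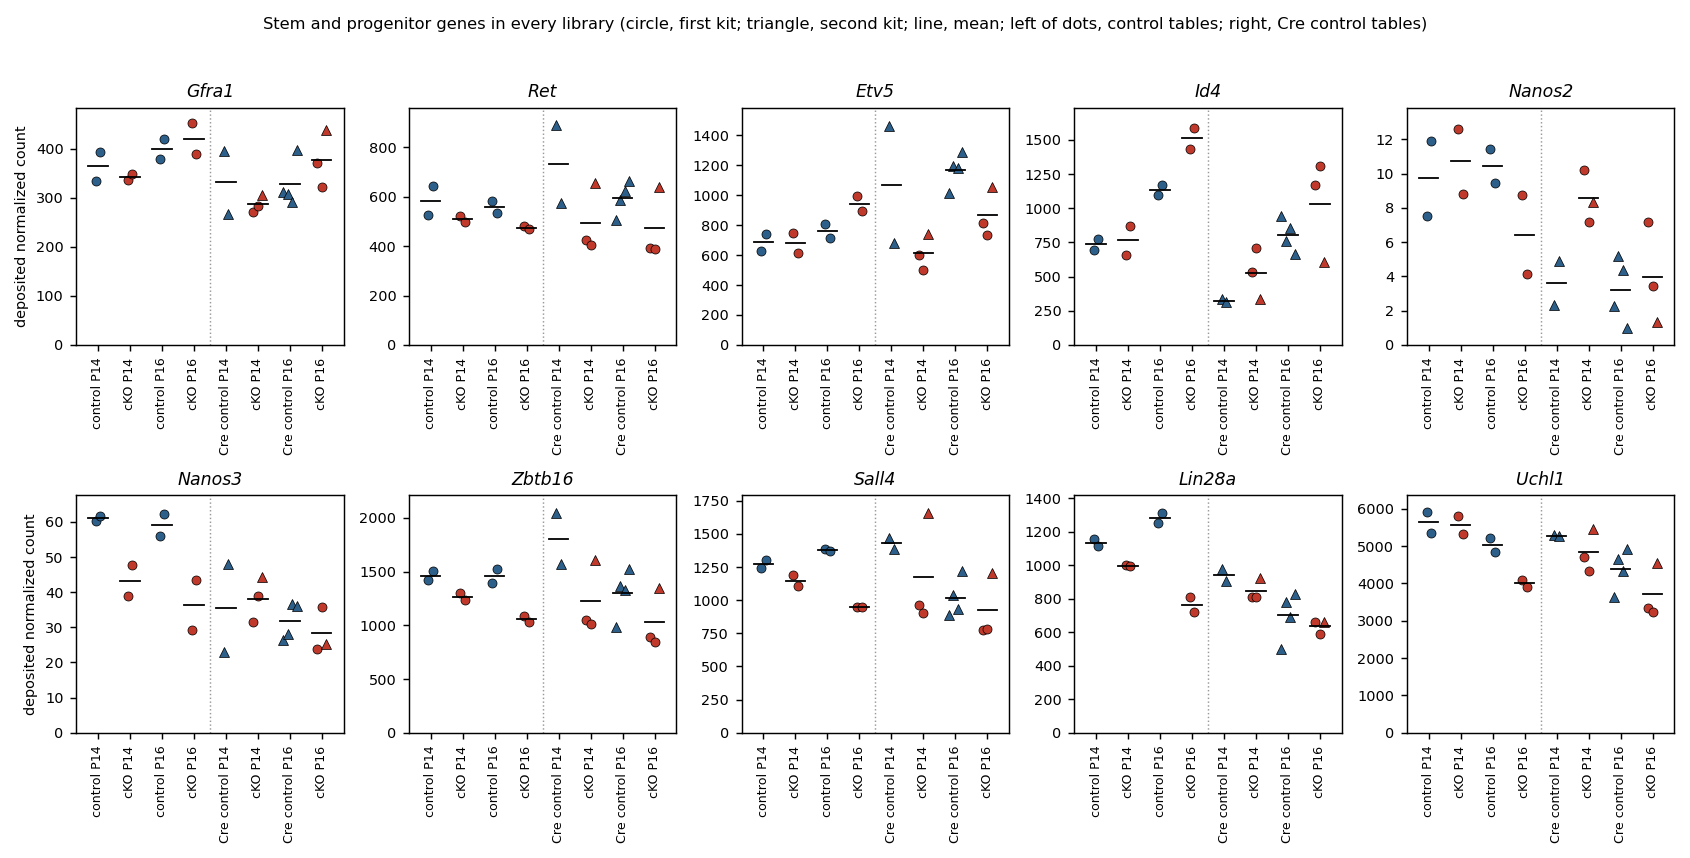
Deposited normalized counts (y axis, linear, from 0) of the 10 genes in every library, by group on the x axis; each point is 1 library, circles mark the first kit, triangles the second, and horizontal lines are group means. Tables were scaled separately, so levels compare only within a stage on 1 side of the dotted line. At P16 in the control table, Lin28a had control values of 1250 and 1308 and cKO values of 807.4 and 717.7.

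At P14, 1 to 2 days after tamoxifen, none of the 10 genes passed the test in the cKO testes against the controls. limma called 0 of the 10 members at an adjusted p under 0.05, where 0.00579% of all 17270 genes tested were called, a share that is Ythdc2 alone. At an unadjusted p under 0.05 limma gave 2 members, Zbtb16 and Lin28a, beside 2.37% of all genes. edgeR and DESeq2 called 0 members, beside 1 and 6 of all genes. The median log2 change of the members was -0.12, against 0.01 over all genes tested. Of the GDNF pathway genes, Gfra1 and Etv5 stood near their control values. Gfra1 had 334.8 and 394.5 in control testes against 336.0 and 348.8 in cKO testes, and Etv5 had 628.7 and 743.4 against 744.7 and 615.5. Id4 had control values of 695.4 and 778.1 and cKO values of 661.2 and 874.2. The groups of Gfra1, Etv5 and Id4 overlapped. Ret had control values of 525.3 and 642.6 and cKO values of 523.4 and 496.3. Lin28a had control values of 1153 and 1112 normalized counts and cKO values of 1003 and 991.6 (log2 change -0.18, SE 0.06, limma adjusted p = 0.9997). Zbtb16 was at 1420 and 1505 against 1296 and 1239 (log2 change -0.21, SE 0.06). For 5 members both cKO libraries lay below both controls (Ret, Zbtb16, Nanos3, Lin28a and Sall4) and for 0 members above; of all genes tested, 14.5% and 15.1% did so.

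At P16, 6 of the genes were lower and 2 higher in the cKO testes than in the controls of the same kit. Lin28a, Sall4, Zbtb16, Uchl1, Nanos3 and Ret fell, and Id4 and Etv5 rose. Gfra1 did not pass the test, and Nanos2 had too few reads to be tested. These 8 called of 9 tested stand beside 38.6% of all 17986 genes called, 18.6% higher and 19.9% lower, so change was common over all genes tested. The members' median log2 change was -0.33, against 0.00 over all genes.

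Of the GDNF receptor genes, Ret was slightly lower at P16 and Gfra1 did not pass the test. Gfra1, which encodes the ligand-binding receptor, had control values of 379.3 and 420.6 and cKO values of 452.2 and 390.5, with overlapping groups (log2 change 0.07, SE 0.10, adjusted p = 0.585). Ret, its tyrosine kinase partner, had control values of 584.0 and 533.1 and cKO values of 480.4 and 470.2. Both cKO values of Ret lay below both controls, a fold of 0.852 (log2 change -0.23, SE 0.08, adjusted p = 0.0336). That call was lost with DESeq2 (adjusted p = 0.159), without a filter on low values (0.0735), and without control library 1 (0.272) or cKO library 2 (0.0668).

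Id4 and Etv5 rose. Id4, an inhibitor of DNA binding that marks the most stem-like cells, had control values of 1098 and 1169 normalized counts and cKO values of 1431 and 1591. All cKO values of Id4 exceeded the controls, by 1.33-fold (log2 change 0.41, SE 0.06, adjusted p = 0.000299). Etv5, an ETS factor that GDNF induces, had control values of 806.4 and 712.7 and cKO values of 991.8 and 893.8. It rose 1.24-fold (log2 change 0.31, SE 0.08, adjusted p = 0.00641), and the call was lost without control library 2 (adjusted p = 0.0899).

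Of the genes of RNA-binding factors, Lin28a and Nanos3 fell. Lin28a, which blocks maturation of let-7 microRNAs, had control values of 1250 and 1308 and cKO values of 807.4 and 717.7. Its groups were well apart, and it fell to 0.596 of the control level (log2 change -0.75, SE 0.07, adjusted p = 5.70e-06), the lowest log2 change among the 9 members tested. Nanos3 had control values of 56.1 and 62.4 and cKO values of 29.1 and 43.5 (log2 change -0.72, SE 0.24, adjusted p = 0.0325). The Nanos3 values rested on 30 to 66 reads, its call was lost with DESeq2 (adjusted p = 0.168), without a filter (0.0928) and without either control library or cKO library 1 (0.0665 to 0.241), and its change without cKO library 1 was -0.44. Nanos2, a translational repressor that keeps stem cells undifferentiated, was counted 11 and 10 times in control testes against 9 and 4 times in cKO testes, too few for any statement on its change.

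The zinc-finger factors and Uchl1 fell as well. Sall4 had control values of 1384 and 1373 and cKO values of 949.1 and 951.8, a fold of 0.690 (log2 change -0.54, SE 0.06, adjusted p = 1.52e-05). Zbtb16, which represses the differentiation gene Kit, had control values of 1390 and 1521 and cKO values of 1084 and 1028, a fold of 0.726 (log2 change -0.46, SE 0.06, adjusted p = 0.000105). Replicates of both genes lay close together and the groups far apart. Uchl1 had control values of 5206 and 4849 and cKO values of 4089 and 3910, a fold of 0.796 (log2 change -0.33, SE 0.05, adjusted p = 0.000186). Summed over the 10 genes, control testes held 11959 and 12166 normalized counts against 10001 and 10323 in cKO testes, and Uchl1 made up the largest share of each sum. The cKO libraries did not overlap the controls in 8 of the 9 members tested, 6 below and 2 above, where 35.4% and 34.2% of all genes tested did so. With a limma variance that does not depend on the level, Lin28a (adjusted p = 0.0395) and Sall4 (0.0364) kept their calls and the other 6 lost them (0.0512 to 0.118). In RNA from whole testes, fewer cells of a type and less RNA per cell cannot be told apart.

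**Figure D2:**
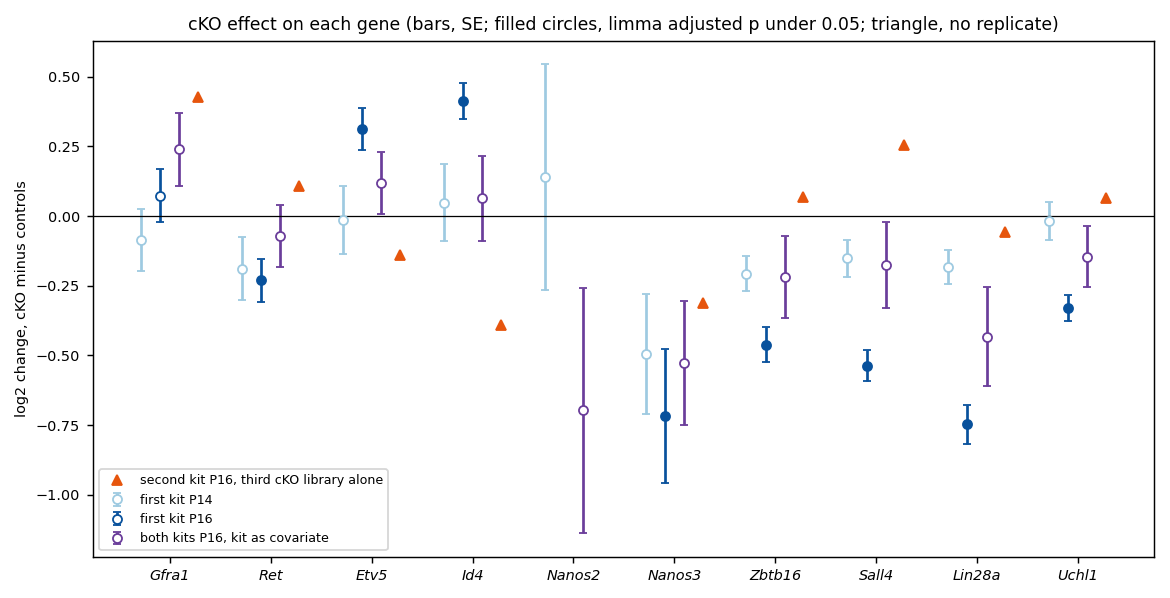
log2 change in the cKO libraries relative to controls (y axis) for each gene (x axis), for the first kit at P14 and P16, for both kits together at P16, and for the third cKO library of the second kit alone at P16. Bars are standard errors, filled circles passed the adjusted p of 0.05, and triangles are single libraries with no test. Lin28a lies at -0.75 in the first kit, -0.43 over both kits and -0.06 for the third cKO library.

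In the first kit, the cKO effect on 2 of the genes differed between the stages. In the second kit each stage had a single cKO library, so this difference was not tested there. In the Cre controls of the second kit Sall4 and Lin28a were also lower at P16 than at P14 (below), Sall4 called and Lin28a not. In the 8 libraries of the first kit, the effect on Lin28a was lower at P16 than at P14 by -0.55 on the log2 scale (SE 0.09, interaction term, limma adjusted p = 0.0116). That on Sall4 was lower by -0.37 (SE 0.08, adjusted p = 0.0284). The other 8 members did not pass this test, where 7.39% of all 18581 genes did, 2.9% higher and 4.49% lower. Uchl1 (-0.30, SE 0.09, adjusted p = 0.0765), Zbtb16 (-0.24, SE 0.09, adjusted p = 0.132), Id4 (0.38, SE 0.17, adjusted p = 0.201) and Etv5 (0.34, SE 0.16, adjusted p = 0.218) came next. On this scale of CPM (reads per 1000000 gene reads after TMM scaling, a correction for composition), Lin28a was at 47.97 and 46.01 in the P14 controls and at 41.54 and 41.04 in the P14 cKO pair. At P16 it had control values of 48.1 and 50.4 and cKO values of 31.1 and 28.1, so the control values were alike at both stages and the P16 cKO values were the lowest. Both calls were lost with a limma variance that does not depend on the level (adjusted p = 0.0850 for Lin28a and 0.110 for Sall4). Without 1 of the first-kit libraries the Lin28a call was lost for 2 of 8 libraries (P14 control 2 and P16 control 2, adjusted p = 0.0527 and 0.0648). The Sall4 call was lost for 6 of 8, every library but P14 cKO 1 and 2 (adjusted p = 0.0615 to 0.116).

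No member passed the test against the Cre controls. limma called 0 of 9 members at P14 (0% of 18196 genes called, and 3.87% at an unadjusted p under 0.05) and 0 of 9 at P16 (9.07% of 19200 genes called, and 38.4% unadjusted). At P14 the deleted gene Ythdc2 was not called by limma either, so the absence of calls there says little about the members. At the unadjusted level 0 members passed at P14 and 1 at P16, Etv5. edgeR called 0 members at either stage, beside 0 of all genes at P14 and 1554 at P16. DESeq2 called 0 members at P14 and Etv5 at P16 (adjusted p = 0.0391), beside 5 and 4188 of all genes. The direction of Etv5 was the opposite of that against the controls: its cKO values of 812.3, 736.9 and 1057 gave a log2 change of -0.44 from the Cre controls (SE 0.14, limma adjusted p = 0.069). Of the 3 cKO libraries in each of these fits, 2 had been made with the other kit, and those are the same libraries that were compared with the controls above. Without the third cKO library, where kit and genotype cannot be told apart, limma called 1 member higher (Id4) and 3 lower (Ret, Zbtb16 and Sall4) at P14, beside 34.9% of 17924 genes called (13.6% higher and 21.3% lower). It called 1 higher (Id4) and 5 lower (Ret, Etv5, Zbtb16, Sall4 and Uchl1) at P16, beside 49.5% of 19046 genes (20.2% higher and 29.3% lower).

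Only the third cKO library shares its kit with the Cre controls, and there is no replicate of it. At P16 its Lin28a value was 660.4, within the Cre control values of 501.1, 781.3, 690.6 and 824.7. Sall4 stood at 1207 in that library, against 887.3, 1037, 934.5 and 1218 in the Cre controls. Zbtb16 (1349 against 987.2, 1367, 1332 and 1520) and Uchl1 (4561 against 3644, 4652, 4324 and 4921) also lay inside. For these 4 genes, which fell in the first kit, the third cKO library thus lay inside the range of the Cre controls. Of those, only Cre control P16 library 1 was sequenced in the same run as that cKO library. Against library 1 alone all 4 genes were higher in the third cKO library (Lin28a 660.4 against 501.1, Sall4 1207 against 887.3, Zbtb16 1349 against 987.2, Uchl1 4561 against 3644). The part of the run in this was not tested. Id4 stood at 610.1, below the Cre control values of 944.7, 759.6, 852.6 and 667.1, whereas in the first kit Id4 was higher in the cKO libraries. Etv5 stood at 1057 and within the Cre controls at 1011, 1196, 1184 and 1290. Nanos3 (25.1 against 26.4 to 36.6, on 19 reads) lay below and Gfra1 (438.1 against 290.9 to 398.7) above. In all, 2 of the 9 members tested lay below every Cre control, 6 inside and 1 above, beside 30% of all genes below and 24% above. At P14 the counts were 0 below, 6 inside and 3 above (Id4, Sall4 and Uchl1), beside 33.3% and 26.9%.

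Both kits were then fitted together with the kit as a covariate, so that each cKO library was compared with controls of its own kit. limma called 0 of 10 members at P14 (0.00529% of 18892 genes called) and 0 of 10 at P16 (13.6% of 19932 genes called). At an unadjusted p under 0.05 there were 0 members at P14 (2.46% of all genes) and 2 at P16 (31%), Lin28a and Nanos3. edgeR called 0 members at both stages, beside 2 of all genes at P14 and 2673 at P16. Lin28a had a log2 change of -0.43 at P16 (SE 0.18, adjusted p = 0.123) and Nanos3 of -0.53 (SE 0.22, adjusted p = 0.133). Gfra1 had 0.24 (SE 0.13, adjusted p = 0.233), and Sall4 (-0.18, SE 0.15), Zbtb16 (-0.22, SE 0.15), Uchl1 (-0.15, SE 0.11), Ret (-0.07, SE 0.11), Etv5 (0.12, SE 0.11) and Id4 (0.06, SE 0.15) were nearer 0. Lin28a was called lower without Cre control P16 library 1 (-0.51, adjusted p = 0.0159), and Sall4 without cKO P16 library 3 (-0.53, adjusted p = 0.0468). Cre control P16 library 1 is the only Cre control from the run of cKO P16 library 3, so without it the second-kit comparison is between runs. Without cKO P16 library 3 the second kit holds no cKO library, so the Sall4 change then comes from the first kit alone. Over the P16 refits that left out 1 library, 700 to 3307 of all genes were called.

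**Figure D3:**
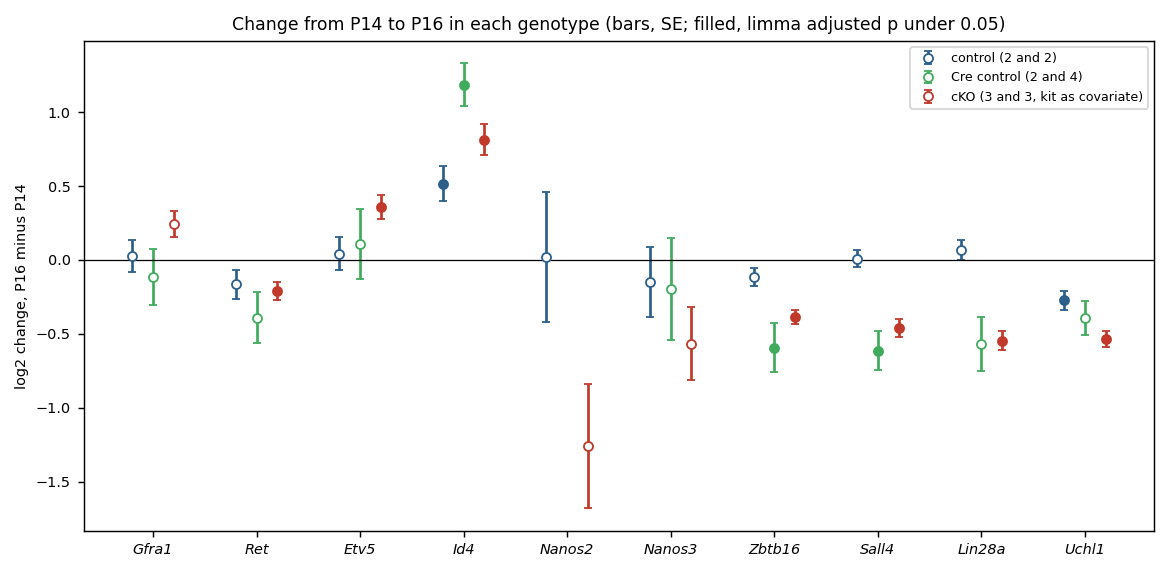
log2 change from P14 to P16 (y axis) of each gene (x axis) in the controls, the Cre controls and the cKO libraries, with standard errors as bars and filled circles at an adjusted p under 0.05. Id4 lies above 0 in all 3, at 0.52, 1.18 and 0.81, and Lin28a lies at 0.07 in the controls, -0.57 in the Cre controls and -0.55 in the cKO libraries.

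Between P14 and P16, Id4 was called higher in the controls, the Cre controls and the cKO libraries. Of the other members, 1 was called lower in the controls, 2 in the Cre controls and 5 in the cKO libraries. In the controls Id4 rose by 0.52 on the log2 scale (SE 0.12, adjusted p = 0.0146) and Uchl1 fell by 0.27 (SE 0.06, adjusted p = 0.0149). These were the 2 calls among 10 members, where 20% of all 18581 genes were called, 13.3% higher and 6.67% lower. The Id4 call in the controls was lost without P14 control 1 or either P16 control (adjusted p = 0.0645 to 0.106), and that of Uchl1 without P14 control 1 or P16 control 2 (0.122 and 0.125). In the cKO libraries, fitted with the kit as a covariate, Id4 rose by 0.81 (SE 0.11, adjusted p = 0.00129) and Etv5 by 0.36 (SE 0.08, adjusted p = 0.0118). Lin28a (-0.55, SE 0.06), Uchl1 (-0.53, SE 0.05), Sall4 (-0.46, SE 0.06), Zbtb16 (-0.39, SE 0.05) and Ret (-0.21, SE 0.06) fell, 5 of 10 members beside 32% of 19101 genes called, 15.7% higher and 16.4% lower. Etv5 lost its call without P16 cKO 1 or P14 cKO 3 (adjusted p = 0.0546 and 0.0533), and Ret without any 1 of 5 of the 6 libraries (0.0937 to 0.112).

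In the Cre controls 1 member of 9 tested was called higher and 2 lower, beside 11.8% of 18819 genes called, 9.06% higher and 2.75% lower. Id4 stood at 18.2 and 17.3 CPM at P14 and at 47.9, 38.5, 42.7 and 33.7 CPM at P16, a rise of 1.18 (SE 0.15, adjusted p = 0.00102). Sall4 stood at 79.9 and 76.4 CPM at P14 and at 44.98, 52.58, 46.81 and 61.43 CPM at P16 (-0.61, SE 0.13, adjusted p = 0.0136). Zbtb16 fell by 0.59 (SE 0.17, adjusted p = 0.0432). Lin28a stood at 53.2 and 49.8 CPM at P14 and at 25.4, 39.6, 34.6 and 41.6 CPM at P16, but missed the threshold (-0.57, SE 0.18, adjusted p = 0.0695). The P14 and P16 ranges of Id4, Sall4, Zbtb16, Lin28a and Uchl1 were apart. The share of all genes with ranges apart was not counted, so this separation cannot be read as particular to the members. Without Cre control P14 library 1, Id4 and Etv5 were called higher and 0 members lower, beside 2.95% of 18671 genes called, 2.76% higher and 0.187% lower. Without P16 library 2 or 3 the Zbtb16 call was lost (adjusted p = 0.0691 and 0.0854), and without P16 library 4 there were 4 calls lower, with Lin28a and Uchl1 added, beside 14.9% of 18586 genes called, 10.5% higher and 4.4% lower. Cre control P16 library 1, the only one sequenced in the same run as the P14 libraries, had the lowest Lin28a, Sall4 and Zbtb16 values of the 4. The difference between control types in these stage changes was not tested, since control type and kit cannot be told apart.

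Of 19 other genes of undifferentiated spermatogonia, 2 rose and 6 fell at P16 against the controls, with a median log2 change of -0.02. These 8 calls stand beside the 38.6% of all genes called in that comparison, 18.6% higher and 19.9% lower, a share like that of the list. Shisa6 (0.77, SE 0.15, adjusted p = 0.00115), a stem cell gene that limits WNT signalling, and the GDNF-induced homeobox gene Lhx1 (1.12, SE 0.33, adjusted p = 0.0164) rose. Lhx1 rested on low values, 14.5 and 16.1 normalized counts in control testes against 45.6 and 25.9 in cKO testes. The progenitor genes Taf4b (-0.81, SE 0.05, adjusted p = 1.11e-07), Sox3 (-0.76, SE 0.10, adjusted p = 7.19e-05) and Rarg (-0.50, SE 0.08, adjusted p = 0.000349) fell, as did Pou5f1 (-0.74), Cdh1 (-0.56) and Pax7 (-1.17). Sox3 had control values of 394.9 and 380.9 and cKO values of 239.7 and 217.5. The 11 that did not pass included Bcl6b, a further GDNF target (0.15, SE 0.13), Foxo1 (0.02, SE 0.05), Neurog3 (-0.16, SE 0.22) and Utf1 (-0.13, SE 0.35). With both kits fitted together, 1 of the 19 was called higher, Shisa6 (0.52, adjusted p = 0.0414), and 2 lower, Sox3 (-0.56, adjusted p = 0.0206) and Taf4b (-0.49, adjusted p = 0.0316). These 3 calls stand beside 13.6% of all genes called, 6.07% higher and 7.49% lower, and this fit shares the first-kit libraries with the one before.

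Of the 14 niche and GDNF-family genes, 11 could be tested at P16, and 5 rose and 1 fell, with a median log2 change of 0.35, beside 18.6% and 19.9% of all genes. Gdnf, the stem cell growth factor itself, had control values of 168.3 and 171.1 and cKO values of 327.0 and 283.8, 1.79-fold higher (log2 change 0.84, SE 0.11, adjusted p = 9.79e-05). Csf1, a cytokine that favours stem cell renewal, rose by 0.77 (SE 0.11, adjusted p = 0.00012), and Cyp26b1, which degrades retinoic acid, by 0.63 (SE 0.07, adjusted p = 1.62e-05). Wnt5a (0.48) and Cxcl12 (0.35) rose too, and Nrtn, which encodes another ligand of the GDNF family, fell by 0.54 (adjusted p = 0.0116). The effect on Gdnf was higher at P16 than at P14 (1.03, SE 0.16, adjusted p = 0.00787). Within the controls Gdnf fell by 0.56 from P14 to P16 (adjusted p = 0.0078). In both kits together, 3 of 13 niche genes tested were called higher and 0 lower, beside 6.07% and 7.49% of all genes: Csf1 (0.63, adjusted p = 0.0161), Cyp26b1 (0.46, adjusted p = 0.0277) and Cxcl12 (0.40, adjusted p = 0.0442). Gdnf was not called (0.48, SE 0.20, adjusted p = 0.135). The third cKO library had Gdnf at 225.0, within the Cre controls at 177.0, 275.6, 187.2 and 272.3.

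**Figure D4:**
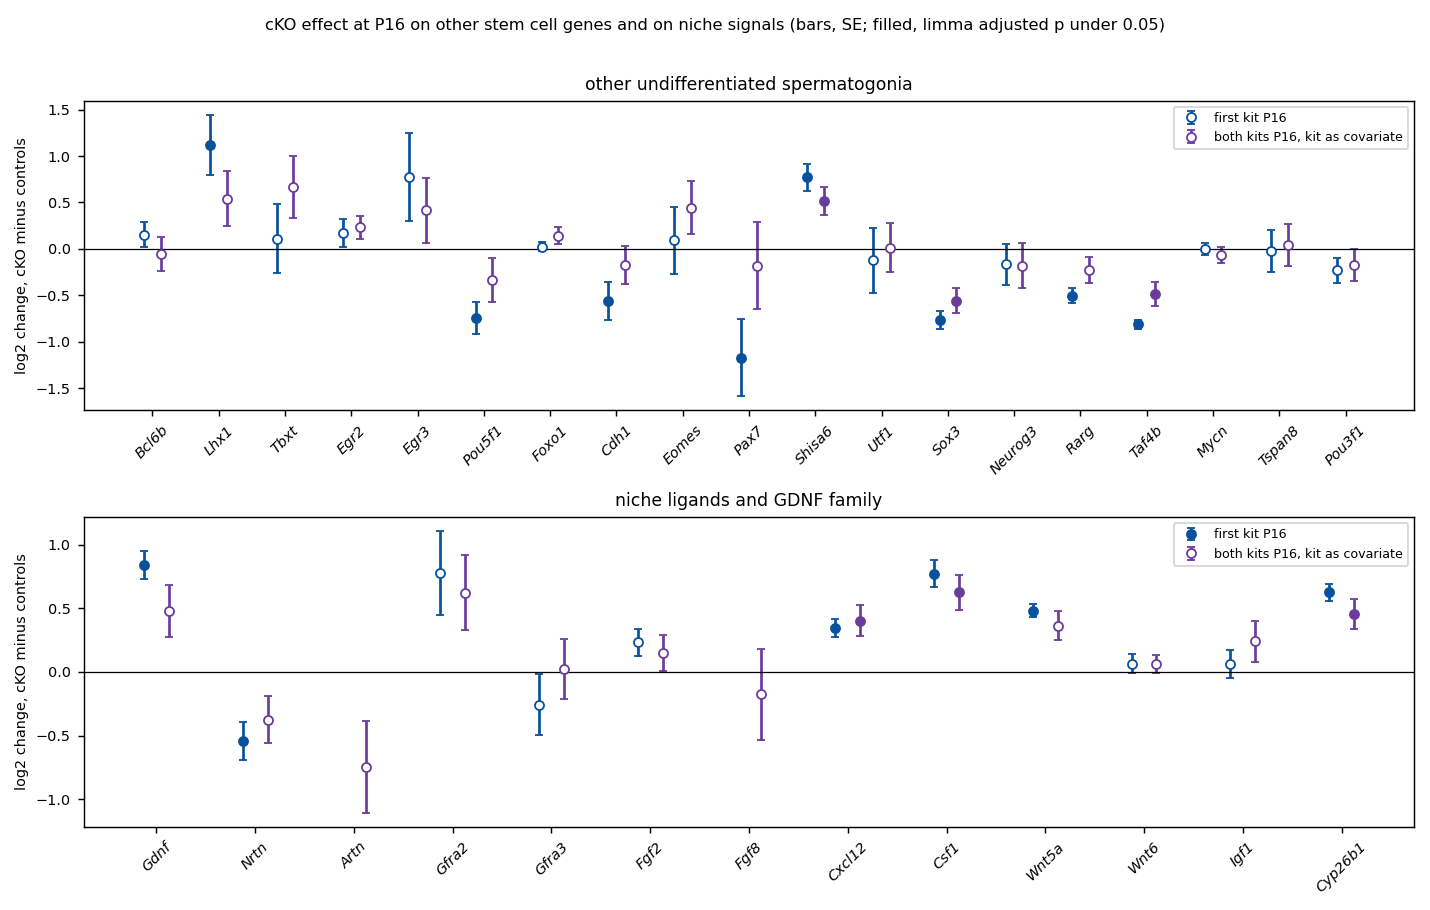
log2 change in cKO libraries at P16 (y axis) for 19 other genes of undifferentiated spermatogonia and for the tested genes of the niche list (x axis), in the first kit and in both kits with the kit as covariate; bars are standard errors and filled circles have an adjusted p under 0.05. Gdnf lies at 0.84 in the first kit and at 0.48, not called, over both kits; Sox3 and Taf4b are called lower in both.

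Markers of other testis cells were also called in the same P16 libraries, where 18.6% of all genes were called higher and 19.9% lower. Of 12 Sertoli genes 9 rose and 0 fell, with a median log2 change of 0.28 (Kitl, 0.49, SE 0.06; Fshr, 0.48, SE 0.07), and their summed level was 118749 to 124232 normalized counts in the controls and 142391 to 157246 in the cKO libraries. Etv5 and Gdnf, which Sertoli cells make, rose in these libraries. Of 8 macrophage genes 6 rose (Lyz2, 0.88, SE 0.09), with sums of 2988 to 3161 against 4243 to 4338. Of the 7 Leydig genes tested 4 rose, and of 8 peritubular and vascular genes 3; 0 fell in either. The Leydig marker Insl3 had at most 3 reads in any library. Of 12 genes of differentiating spermatogonia 10 fell (Prss50, -1.65, SE 0.06; Stra8, -1.10, SE 0.06), with sums of 21568 to 21948 in the controls and 15319 to 15533 in the cKO libraries, and of 12 early meiotic genes 11 fell. Of 10 general germ cell genes 5 fell and 1 rose, with sums of 89837 to 90445 against 77834 to 85934. Of 11 pachytene genes tested 5 rose and 1 fell; Acrv1 of that list had at most 6 reads. Meioc, which encodes the partner protein of YTHDC2, rose (1.11, SE 0.05). With both kits fitted together, 2 of the 12 Sertoli and 4 of the 8 macrophage genes were called higher, and 2 of the 12 genes of differentiating spermatogonia and 6 of the 12 early meiotic genes lower, beside 6.07% of all genes higher and 7.49% lower. The part of these shifts in the changes of the stem and progenitor genes was not tested. At P14 0 genes of any of these lists were called.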

How the data were processed

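The authors deposited 4 tables of gene values, 1 for each stage and control type. The submitters' processing notes name Trim Galore, STAR, HTSeq and DESeq2 and the build GRCm39 (mm39), without versions or roles. The deposited values are a signal: a gene count over the size factor of its library. In all 20 columns 100% of the values above 0 came out as whole reads (tolerance 0.01 read), so reads were recovered. Each table was scaled on its own, and levels compare only within a table. cKO libraries 1 and 2 of a stage occur in both of its tables with 0 rows differing and count once.

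Within a table, limma 3.58.1 (R 4.3.3, eBayes with trend) was run on log2(value + 1) keeping genes that reached 10 in 2 or more libraries. Fold changes on this scale understate those of low genes. Fits across tables or stages used limma with trend on log2 CPM (TMM, prior count 1) of recovered reads, over genes with 10 reads in 2 or more libraries, and the kit as a covariate where kits were mixed. P-values were adjusted by Benjamini-Hochberg over all genes tested; called means an adjusted p under 0.05. A single cKO library was set against the range of the Cre controls with no test. Some of the fits were tested on simulated data. These held no difference between kits or runs, so the handling of mixed kits was not tested.

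Alternatives were a pseudocount of 0.1 or 10, a prior count of 10, a minimum of 50 or none, TMM or median-of-ratios scaling, edgeR 4.0.16 and DESeq2 1.42.0 on recovered reads, limma with eBayes without trend, a replicate block, a kit covariate, and each library left out. GENCODE M21 gave names for 52081 of 55414 identifiers, and its exon coordinates gave the exon lengths and overlaps. Only 35 versioned identifiers are as in that release, so none of its coordinates are printed. The 10 members and the 10 other gene lists (125 of 125 genes found, beside Ythdc2 and Meioc) were chosen with earlier results of these data known. Named are Ythdc2, Meioc, all members, the genes of the undifferentiated and niche lists, and up to 4 called genes with the largest change at P16 of each other list. Summary rows of the read counter (18.1% to 41.1% of reads unmapped) were left out.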

Additional observations from a re-analysis of the deposited data

Results flagged for a closer look

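The cKO effect on Lin28a differed between the stages: it was lower at P16 than at P14 by -0.55 on the log2 scale in the libraries of the first kit (value -0.5499, interaction term, limma adjusted p = 0.0116). The cKO effect on Sall4 differed in the same way, by -0.37 (value -0.3693, adjusted p = 0.0284). Both calls were lost without some single libraries and with a limma variance that does not depend on the level. The difference was not tested in the second kit. In the Cre controls at P16, the only group of 4 libraries, none stood apart from the others in a member by Dixon's test; the nearest was Gfra1, whose highest value lay 0.798 of the group range above the next, short of the critical value.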

How the results depend on the processing

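Over 1248 refits of single members under the alternatives of each comparison, 1122 kept their direction and their side of the adjusted p of 0.05, 48 lost a call, 28 gained one and 50 changed sign. Of the 50, 0 were called before or after the change. Adding the kit as a covariate to the Cre control tables, where only cKO library 3 then carries the comparison, gave 7: Sall4 (0.22) and Uchl1 (0.051) at P14, and Id4 (-0.39), Ret (0.11), Sall4 (0.25), Zbtb16 (0.069) and Uchl1 (0.066) at P16. Another 2 lay near 0 in controls across stages, Nanos2 with edgeR (-0.0095) and Sall4 with a minimum of 50 (-0.0020). The other 41 came from leaving out a library, over these ranges. Against controls they were -0.15 to 0.12 (Etv5), -0.20 to 0.032 (Gfra1), -0.15 to 0.25 (Id4), -0.16 to 0.38 (Nanos2) and -0.090 to 0.055 (Uchl1) at P14, and -0.033 to 0.18 (Gfra1) at P16. Against Cre controls at P14 they were -0.46 to 0.10 (Gfra1) and -0.34 to 0.69 (Nanos3). Over both kits they were -0.34 to 0.024 (Etv5), -0.19 to 0.00071 (Gfra1), -0.031 to 0.15 (Id4), -0.50 to 0.019 (Nanos3), -0.16 to 0.072 (Sall4) and -0.025 to 0.061 (Uchl1) at P14, and -0.038 to 0.41 (Id4) and -0.23 to 0.011 (Ret) at P16. For the difference between stages they were -0.50 to 0.060 (Nanos3) and -0.17 to 0.11 (Ret). Across stages they were -0.075 to 0.16 (Etv5), -0.085 to 0.14 (Gfra1), -0.28 to 0.32 (Nanos2) and -0.019 to 0.034 (Sall4) in controls, and -0.43 to 0.65 (Etv5), -0.39 to 0.16 (Gfra1) and -0.72 to 0.33 (Nanos3) in Cre controls. The cause of the other changes was not tested. The smallest groups held 2 libraries, and with Nanos2 at 1 to 13 reads and Nanos3 at 19 to 66, changes of those genes were measured with little precision.

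With eBayes without trend, the genes called fell to 0 at P14 and 1806 at P16 against controls, 32 at P16 against Cre controls, 0 at P14 and 991 at P16 over both kits, 135 for the difference between stages, and 2166, 4065 and 903 for the stage changes of controls, cKO and Cre controls. Members called were then 0 higher and 2 lower at P16 against controls, 0 lower for the difference between stages, 0 higher and 0 lower in controls across stages, 1 higher in cKO and 0 lower in Cre controls. DESeq2 called 6 and 5 genes at P14 against controls and Cre controls and 4188 at P16 against Cre controls, 1 lower member among them. edgeR called 2 genes at P14 over both kits. With no filter, 0 genes were called at P14 against controls and 917 at P16 against Cre controls; a pseudocount of 10 gave 3277 there, and the kit as a covariate 1.

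With the replicate number as a block, run for the comparisons within a table, 5 genes were called at P14 and 8200 at P16 against controls. Against Cre controls 6966 genes were called at P14 and 0 at P16, with 1 member called higher and 4 lower at P14. No other count of members changed. At P14 no Cre control has the number 3, so there the block also takes cKO library 3 out of the comparison, and kit and genotype cannot be told apart. The numbers were not read as pairs, since no label ties them to animals or days. The correlation of same-numbered deviations was 0.20 and 0.08 in the control tables and between -0.23 and 0.30 in the Cre control tables. With 2 libraries in each group, the other correlations of the control tables only mirror these, so they cannot decide on pairing. At P16 not every library correlated best with its own number.

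Leaving out each library in turn, the genes called ranged from 0 to 11 (P14) and 4591 to 7045 (P16) against controls, 0 to 6256 and 0 to 9427 against Cre controls, and 700 to 3307 at P16 over both kits. They ranged from 284 to 3199 for the difference between stages, and 1640 to 4737, 4044 to 6212 and 551 to 2777 for the stage changes of controls, cKO and Cre controls. Members called at P16 against controls were 1 to 2 higher and 4 to 5 lower. Against Cre controls they were 0 to 1 higher and 0 to 3 lower at P14, and 0 to 1 higher and 0 to 5 lower at P16, the highest counts of called genes and members coming without cKO library 3; over both kits at P16 they were 0 to 1 lower. For the difference between stages they were 0 to 1 higher and 0 to 3 lower. Across stages they were 0 to 1 higher and 0 to 1 lower in controls, 1 to 3 higher in cKO, and 1 to 2 higher and 0 to 4 lower in Cre controls. A library left alone in its group was assumed to vary like the others.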

Other observations

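Of the 14 niche and GDNF-family genes, 13 could be tested between P14 and P16. In the controls 7 fell from P14 to P16 and 0 rose, beside 6.67% of all genes lower and 13.3% higher, with a median log2 change of -0.48: Igf1 (-0.95), Csf1 (-0.64), Cyp26b1 (-0.63), Gdnf (-0.56), Wnt6 (-0.53), Fgf2 (-0.43) and Cxcl12 (-0.28). In the cKO libraries Gdnf (0.36, limma adjusted p = 0.0373), Wnt5a (0.35) and Csf1 (0.32) rose, while Artn (-1.06), Igf1 (-0.70), Nrtn (-0.67) and Wnt6 (-0.52) fell, beside 15.7% of all genes higher and 16.4% lower. The cKO effect was higher at P16 than at P14, by the interaction test, for 4 of the 13, namely Gdnf (1.03), Csf1 (0.99), Cyp26b1 (0.58) and Wnt5a (0.45), and lower for 0, beside 2.9% and 4.49% of all genes. In the Cre controls Igf1 (-0.98) and Cyp26b1 (-0.63) fell and 0 rose, beside 2.75% and 9.06% of all genes.

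Among the 19 other genes of undifferentiated spermatogonia, Utf1 rose (1.34, SE 0.35, adjusted p = 0.0228) and Mycn fell (-0.22) in the controls from P14 to P16. These 2 calls stand beside 20% of all genes called. In the cKO libraries 6 fell and 0 rose, beside 16.4% and 15.7% of all genes: Sox3 (-0.84), Neurog3 (-0.70), Pou3f1 (-0.68), Taf4b (-0.68), Rarg (-0.58) and Mycn (-0.28). The interaction test was passed by 3, all lower at P16: Taf4b (-0.64, adjusted p = 0.000949), Sox3 (-0.62) and Rarg (-0.50), beside 4.49% of all genes lower. In the Cre controls Taf4b alone of 18 tested was called, and it fell by 0.68, beside 2.75% of all genes lower.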
